A study of Mus musculus with 12 samples.

Results

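Bone morphogenetic protein (BMP) signaling was described here through 10 genes out of the 51467 in the count table: the ligands Bmp4 and Bmp7, the receptors Bmpr1a and Bmpr2, the signal transducers Smad1 and Smad5, the inhibitory Smad6, and the Id targets Id1, Id2 and Id3. The genes were listed by name as pathway members and matched to the table by Ensembl gene ID and symbol, in knowledge of earlier results of these data. All 10 passed the expression filter of at least 3 CPM (read counts scaled to a common library total) in at least 3 libraries, as did 14731 genes in all, and each of the 10 passed it in the libraries of either cell type alone.

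BMP ligands are secreted dimers that bring type I and type II serine/threonine kinase receptors together at the cell surface. The type II receptor activates the type I receptor, which phosphorylates Smad1 and Smad5. These enter the nucleus with Smad4 and act on target genes, among which the Id genes are the best known. Id proteins lack a DNA-binding domain and hold E proteins away from DNA, and in mouse embryonic stem cells (ESCs) grown with serum or BMP they are known for their part in self-renewal together with LIF.

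The study followed mouse ESCs into epiblast-like cells (EpiLCs) and asked what transcription and mRNA decay each contribute to the changes in mRNA. ESCs were kept with LIF, the 2i inhibitors PD0325901 and CHIR99021, and fetal bovine serum in the medium. EpiLCs came from the same ESCs, plated for 24 h and then held without LIF and 2i for about 56 h. The cells of the differentiation experiments were, per the study's methods, 1 V6.5 reporter line with miR-290 and miR-302 loci marked by mCherry and GFP, so the replicates are cultures of a single line. All cells were fed 500 µM 4-thiouridine (4sU) for 30 min. RNA that had taken up 4sU was captured to give 3 nascent libraries per cell type (4sU), and RNA depleted of rRNA gave 3 total libraries per cell type.

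Each 4sU library held 3097693 to 5385644 counted reads and each total library 9300845 to 21975684. The markers fit the labelled cell types: 10 of 10 naive genes were called lower and 6 of 7 formative genes called higher in EpiLC total RNA. ESC replicate 3 stood apart from ESC replicates 1 and 2 in both assays, which touched 4 of the 10 genes and is given beside them. Genes of other cell types were also counted. The summed level of 10 fibroblast genes was 6.95 to 8.36 CPM in ESC total and 27.4 to 30.6 in EpiLC total, and 3 of the 4 that passed the filter were called higher. Fap was at 0 reads in every library and Col1a1 at 2.65 CPM or less, while Dcn went from 0 reads in ESC total to 4.46 to 5.31 CPM in EpiLC total and Twist1 from 2.32 to 4.03 CPM to 11.4 to 12.6. In the same order, total RNA gave 6.61 to 13.3 and 23.9 to 25.1 for 9 primitive endoderm genes, 11.1 to 18.8 and 25.8 to 33.1 for 5 ectoderm genes, and 70.9 to 80.0 and 95.7 to 118 for 7 trophectoderm genes. Of the 4 primitive endoderm genes past the filter 2 were called higher and 1 lower, and so it was for the 4 trophectoderm genes. Dab2 had 0.116 to 1.47 and 10.2 to 12.3 CPM, against 1.31 to 2.26 and 0 to 0.199 for Sox17. Krt8 had 15.1 to 21.2 and 73.2 to 92.3, against 39.0 to 40.8 and 3.70 to 4.17 for Tfap2c. The 6 mesendoderm genes gave 17.4 to 28.2 and 21.3 to 33.2 in total RNA, and 21.1 to 28.4 and 45.1 to 102 in 4sU RNA. Of the 3 past the filter 2 were called higher in total RNA and none lower. Eomes made up most of the total sum, with 9.54 to 22.1 and 11.8 to 18.7 CPM, while T had 0.197 to 2.55 and 5.31 to 8.75. Of the 2 ectoderm genes past the filter 1 was called higher and none lower. The part of such cells in the changes given here was not tested, and in bulk RNA more cells of a type and more RNA per cell cannot be told apart.

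Levels are CPM after TMM scaling, which corrects library totals for composition. A gene was called changed at a limma-voom adjusted p under 0.05 together with an absolute log2 fold change over 1, the thresholds of the study. In total RNA, 2 of the 10 genes were called higher in EpiLCs, Id1 and Bmpr2, where 16.3% of all tested genes were called higher. None was called lower, against 11.2% of all genes. By adjusted p alone 9 of 10 differed, 7 higher and 2 lower, where 63.5% of all genes did. The same 2 genes were called higher in nascent RNA (11.9% of all genes) and none lower (13.5%). By adjusted p alone 6 of 10 differed there, against 52.5% of all genes. The 2 cell types did not overlap, every library of one lying above every library of the other, for 8 of 10 genes in total RNA (68.6% of all genes) and for 7 of 10 in nascent RNA (60.7%). No gene was called for stability, the total change minus the nascent change (1.54% of all genes), and 1, Id2, passed by adjusted p alone (4.60%). The median log2 fold change of the 10 genes was 0.59 in total RNA and 0.19 in nascent RNA, beside 0.02 and −0.09 for all tested genes. By counts the genes thus stood near the background, and the results lie in the single genes.

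**Figure D1:**
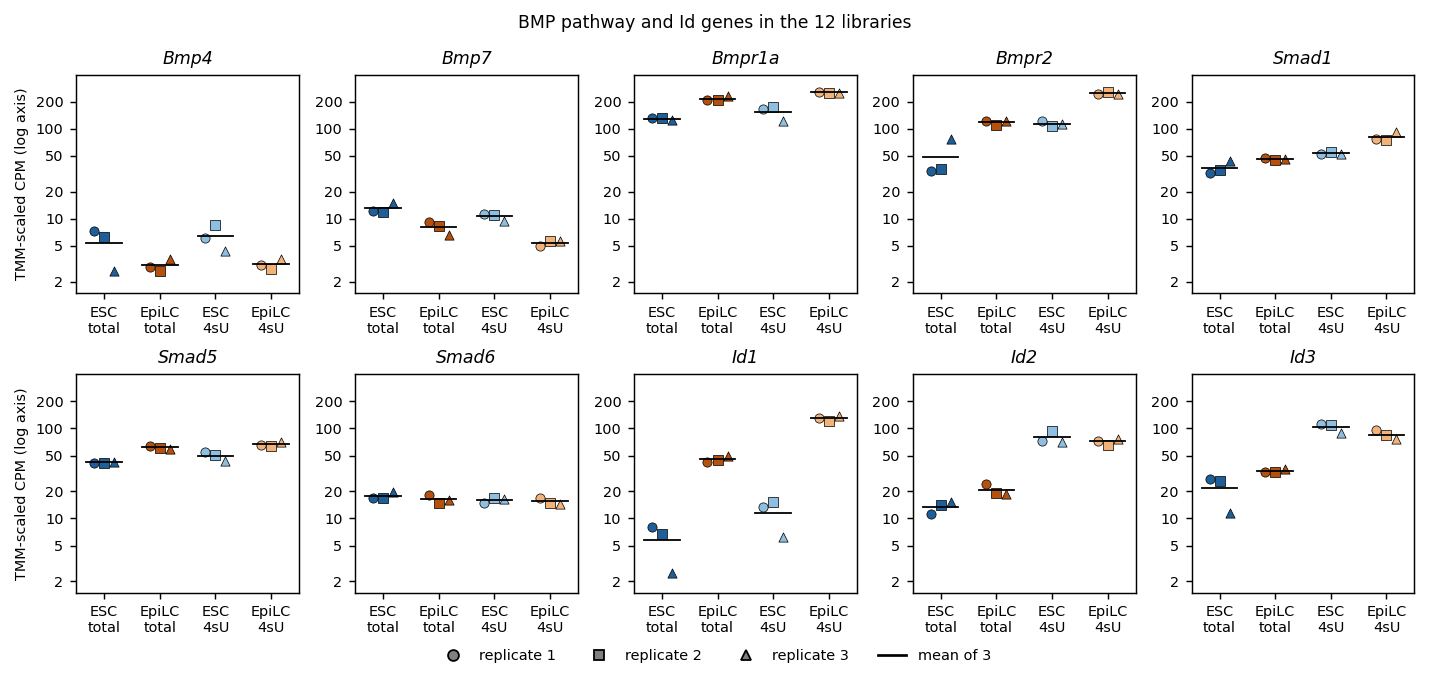
TMM-scaled CPM (log axis) of each of the 10 genes in the 12 libraries, grouped by cell type and assay, with a marker shape for each replicate and a line at the mean of 3. Id1 lies between 2.46 and 8.11 CPM in ESC total and between 42.0 and 49.4 in EpiLC total, and the triangles of ESC replicate 3 sit low for Bmp4, Id1 and Id3.

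Both ligands were low in all libraries, with negative fold changes that were called in neither assay. Bmp4 (ENSMUSG00000021835.14, chr14:46383520-46390669, minus strand, mm10) is the ligand made by the extraembryonic ectoderm beside the epiblast and the one most used in ESC culture. In ESC total RNA Bmp4 stood at 7.24, 6.34 and 2.65 CPM in replicates 1, 2 and 3, and in EpiLC total RNA at 2.90, 2.65 and 3.58. ESC replicates 1 and 2 lay above every EpiLC library, while ESC replicate 3 lay among them. The log2 fold change was −0.83 ± 0.34 (SE, n = 3 per group) with an adjusted p of 0.0447, which is 1.78-fold lower in EpiLCs and under the fold threshold. Without the ESC total library of replicate 3 it was −1.15 (adjusted p = 1.73e-04) and Bmp4 was called lower. Without the ESC total library of replicate 1 it was −0.62 with an adjusted p of 0.145. Over 23 alternatives Bmp4 was called 3 times in total RNA, and its adjusted p there was under 0.05 in 11.

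In nascent RNA Bmp4 stood at 6.13, 8.59 and 4.34 CPM in ESCs and at 3.06, 2.76 and 3.56 in EpiLCs. The groups did not overlap, but these levels rest on 16 to 48 reads per ESC library and 12 to 13 per EpiLC library. The fitted log2 fold change was −1.02 ± 0.49 with an adjusted p of 0.0974. It was −1.24 ± 0.29 (adjusted p = 0.00118) and called without both ESC replicate 3 libraries, and it was called in 5 of 23 alternatives in all, among them edgeR (−1.06, adjusted p = 0.0337).

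Bmp7 (ENSMUSG00000008999.7, chr2:172868012-172940321, minus strand) is a ligand that can pair with Bmp4 in a heterodimer. Its total level was 12.2, 12 and 14.8 CPM in ESCs and 9.26, 8.24 and 6.56 in EpiLCs. Its nascent level was 11.2, 11.1 and 9.49 CPM in ESCs and 4.95, 5.72 and 5.64 in EpiLCs. Every ESC library lay above every EpiLC library in both assays. Its log2 fold change was −0.68 ± 0.14 in total RNA (adjusted p = 6.72e-04) and −0.96 ± 0.24 in nascent RNA (adjusted p = 0.00407), 1.61-fold and 1.95-fold lower and both under the fold threshold. Without both ESC replicate 3 libraries the nascent value was −1.05 and was called.

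The receptors went the other way. Bmpr2 (ENSMUSG00000067336.6, chr1:59763400-59879014, plus strand, 13 exons in its first transcript) encodes the type II receptor that is dedicated to BMP ligands. Its total level was 34.0, 36.0 and 77.4 CPM in ESC replicates 1, 2 and 3 and 121, 111 and 121 in EpiLCs. ESC replicate 3 was about midway between the other ESC libraries and the EpiLCs, and the groups did not overlap. Bmpr2 rose by a log2 fold change of 1.41 ± 0.20 (2.66-fold, adjusted p = 2.76e-05). Left-out libraries moved this between 1.18 and 1.75, and it was called each time.

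Nascent Bmpr2 was 121, 108 and 112 CPM in ESCs, with replicate 3 no longer apart, and 242, 253 and 246 in EpiLCs. It rose by 1.12 ± 0.21 on the log2 scale (2.18-fold, adjusted p = 4.48e-04). The stability value was 0.29 ± 0.29 (adjusted p = 0.607). It was 0.65 ± 0.10 (adjusted p = 3.06e-04) without both ESC replicate 3 libraries, which is past the p threshold and short of the fold threshold. Bmpr2 overlaps the same-strand transcript Gm38125, of the class still awaiting experimental evidence, and how shared reads were counted was not tested.

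Bmpr1a (ENSMUSG00000021796.14, chr14:34410734-34502687, minus strand, 13 exons) encodes the main type I receptor for Bmp4 in the early embryo. Its total level was 132, 131 and 124 CPM in ESCs and 211, 209 and 229 in EpiLCs, and its nascent level was 167, 176 and 122 in ESCs and 258, 252 and 251 in EpiLCs. The groups were well separated in both assays. The log2 fold changes were near each other at 0.74 ± 0.10 in total RNA (adjusted p = 1.43e-05) and 0.72 ± 0.11 in nascent RNA (adjusted p = 7.65e-05), 1.67-fold and 1.65-fold higher. The stability value was 0.02 ± 0.15.

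Per kilobase of exon Bmpr1a was the highest of 3 type I receptor genes that pass BMP signals, Bmpr1a, Bmpr1b and Acvr1. It held 90.7% ± 2.19 (SD, n = 3) of their summed total level in ESCs and 89.7% ± 1.33 in EpiLCs. Acvr1, which encodes ALK2, held 9.24% ± 2.26 and 7.64% ± 1.43. Bmpr1b, which encodes the other dedicated type I receptor, held 0.0803% ± 0.0840 in ESCs and 2.62% ± 0.221 in EpiLCs. Bmpr1b had 4, 2 and 0 reads in the ESC total libraries and 49, 67 and 65 in the EpiLC total libraries. It passed the filter through the EpiLC libraries alone, so these values are a description, and it was named after its values were seen. Acvrl1, a further type I receptor gene, was left out of the sum. It stood at 0.393 ± 0.171 CPM per kb in ESC total RNA and 0.257 ± 0.161 in EpiLC total RNA, beside 21.4 and 35.8 for Bmpr1a. Of the type II receptor genes, Bmpr2 held 22.2% ± 7.80 of the summed total level per kilobase in ESCs and 24.2% ± 1.54 in EpiLCs, a difference smaller than the ESC spread, with Acvr2b at 52.2% ± 4.67 and 54.3% ± 2.23.

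**Figure D2:**
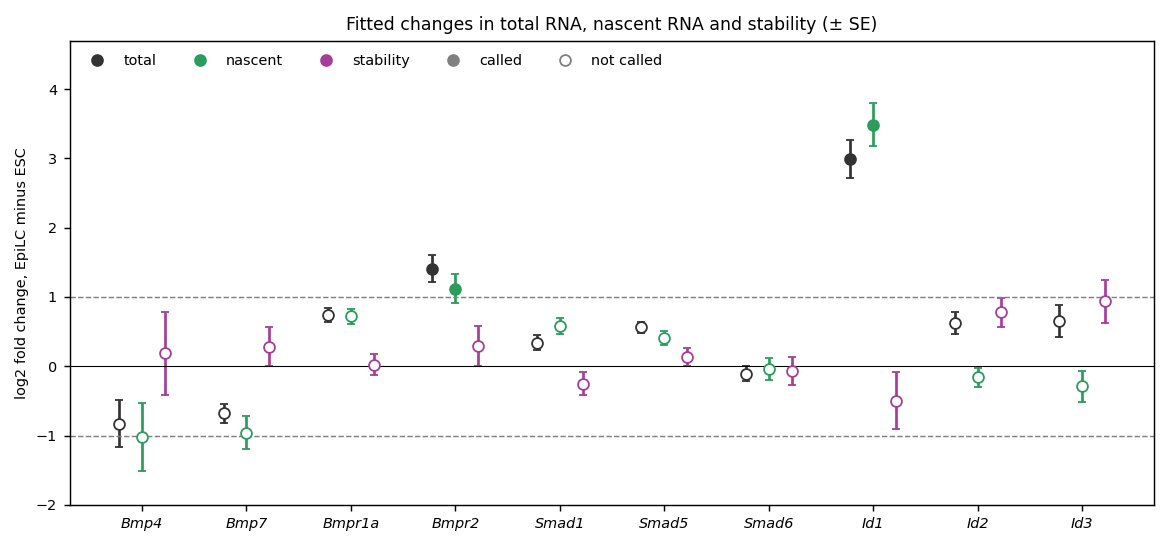
Fitted log2 fold changes (EpiLC minus ESC, ± SE) of the 10 genes in total RNA, nascent RNA and stability, with dashed lines at the fold threshold of 1 and filled points for called changes. Id1 and Bmpr2 are filled in total and nascent RNA, and no stability point is filled.

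The signal transducers were slightly higher in EpiLCs and the inhibitor was level. Smad1 (ENSMUSG00000031681.16, chr8:79338395-79399518, minus strand) measured 32.4, 34.9 and 43.6 CPM in ESC total RNA and 47.4, 44.6 and 45.5 in EpiLC total RNA. This was a log2 fold change of 0.34 ± 0.11 (adjusted p = 0.0129), and 0.23 with an adjusted p of 0.0902 without the ESC total library of replicate 1. In nascent RNA the levels were 52.8, 55.8 and 52.3 CPM in ESCs and 76.8, 75.4 and 91.7 in EpiLCs, a log2 fold change of 0.58 ± 0.12 (adjusted p = 9.99e-04). The libraries of the cell types did not overlap in either assay.

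Smad5 (ENSMUSG00000021540.16, chr13:56703010-56742377, plus strand) shares its role with Smad1. Its total level was 41.5, 41.6 and 42.5 CPM in ESCs and 64.7, 60.8 and 59.3 in EpiLCs, a log2 fold change of 0.56 ± 0.08 (adjusted p = 2.75e-05). Nascent Smad5 was 54.8, 50.3 and 43.9 CPM in ESCs and 66.0, 64.0 and 70.0 in EpiLCs (0.41 ± 0.10, adjusted p = 0.00262). Both genes thus kept under the fold threshold in all alternatives tried. Per kilobase of exon Smad1 and Smad5 made up 54.3% ± 3.37 and 44.7% ± 3.58 of the receptor SMAD level in ESC total RNA, and 50.7% ± 0.684 and 49.1% ± 0.626 in EpiLC total RNA. Smad9, the third of these genes, held 0.912% ± 0.213 and 0.177% ± 0.114.

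Smad6 (ENSMUSG00000036867.7, chr9:63953076-64022059, minus strand) encodes an inhibitory SMAD that competes with Smad1 and is itself a BMP target. It measured 16.7, 16.8 and 19.7 CPM in ESC total RNA and 18.1, 14.9 and 15.9 in EpiLC total RNA, and 14.7, 16.8 and 16.5 against 17, 15 and 14.5 in nascent RNA. The groups overlapped in both assays. The log2 fold change was −0.11 ± 0.11 in total RNA (adjusted p = 0.395) and −0.04 ± 0.16 in nascent RNA (adjusted p = 0.852). Over all alternatives it ran from −0.18 to −0.02 in total RNA and from −0.13 to 0.07 in nascent RNA.

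Promoter windows (250 bases before to 50 after a gene's start, RefSeq, GRCm38.p6) were found for 8 of the 10 genes, with no entry used for Bmp7 and Id1. They were searched on both strands for 3 sequences known to bind SMADs: the palindrome GTCTAGAC, the GC-rich element GGCGCC of BMP SMADs, and CAGAC. None of the 3 holds another of them. GTCTAGAC stood in 0.213% of 32851 promoter windows and, of the 8 genes, in Smad6. GGCGCC stood in 11.9% of all windows and in those of Bmpr1a, Bmpr2, Smad5 and Id2. CAGAC stood in 49.6% of all windows and in those of Smad5 and Id3. Bmp4 and Smad1 held none of the 3 in their windows. A match is a description of the letters only. Stretches with a match are printed 5′ to 3′ on the gene's strand with the match in capitals, since they show the position of the elements in the inhibitor, an Id gene and a receptor. The Id2 and Bmpr1a stretches lie outside exons. The Id2 stretch lies inside the span that the count table gives for Id2 (chr12:25093799-25097140), while the Bmpr1a stretch lies before the Bmpr1a span. The Smad6 stretch (chr9:64022056-64022175) runs to the end of the palindrome, which begins 4 bases before the annotated start, so that its last 4 bases lie in the first exon. The Id2 stretch is chr12:25096254-25096342 and the Bmpr1a stretch is chr14:34502688-34502796, both on the minus strand.
Smad6: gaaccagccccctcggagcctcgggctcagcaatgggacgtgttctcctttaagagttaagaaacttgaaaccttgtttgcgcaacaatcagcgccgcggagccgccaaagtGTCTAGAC
Id2: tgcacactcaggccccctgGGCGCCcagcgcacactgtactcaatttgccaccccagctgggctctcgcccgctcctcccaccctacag
Bmpr1a: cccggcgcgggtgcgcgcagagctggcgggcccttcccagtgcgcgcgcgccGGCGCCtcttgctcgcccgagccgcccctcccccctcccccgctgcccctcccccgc

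The Id genes held the largest change of the 10 genes, and their values differed from one another. Id1 (ENSMUSG00000042745.9, chr2:152736251-152737410, plus strand, 2 exons) is the Id gene most often used as a readout of BMP signaling. Total Id1 was 8.11, 6.69 and 2.46 CPM in ESC replicates 1, 2 and 3, and 42.0, 45.1 and 49.4 in EpiLCs. Nascent Id1 was 13.5, 15.2 and 6.24 CPM in ESCs and 132, 121 and 139 in EpiLCs. Every EpiLC library lay far above every ESC library, and ESC replicate 3 was the lowest in both assays.

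Id1 rose by a log2 fold change of 2.99 ± 0.27 in total RNA (7.94-fold, adjusted p = 2.45e-07) and of 3.49 ± 0.31 in nascent RNA (11.2-fold, adjusted p = 5.96e-07). With both ESC replicate 3 libraries left out the values were 2.62 ± 0.12 and 3.14 ± 0.15, and Id1 was called under each of the 23 alternatives in both assays. The stability value was −0.50 ± 0.41 (adjusted p = 0.511) and was −0.86 (adjusted p = 0.0467) without the ESC total library of replicate 3.

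Id2 (ENSMUSG00000020644.9, chr12:25093799-25097140, minus strand, 3 exons) had higher total but not higher nascent RNA in EpiLCs. Its total level was 11.2, 14 and 15.2 CPM in ESCs and 24.0, 19.2 and 18.7 in EpiLCs, with no overlap. Its nascent level was 73.0, 94.8 and 70.8 CPM in ESCs and 72.3, 65.5 and 77.4 in EpiLCs, with overlap. The log2 fold change was 0.63 ± 0.16 in total RNA (1.55-fold, adjusted p = 0.00267) and −0.16 ± 0.14 in nascent RNA (adjusted p = 0.350). The difference between them, the stability change, was 0.78 ± 0.21 with an adjusted p of 0.0470, under the fold threshold. That adjusted p was under 0.05 in 9 of 22 alternatives and ran from 0.00145 to 0.161 over them. The highest among left-out libraries was 0.150, without the ESC total library of replicate 1, where the value was 0.57.

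Id3 (ENSMUSG00000007872.3, chr4:136143497-136145392, plus strand, 3 exons) had the same arrangement of values. Total Id3 was 27.6, 26.2 and 11.6 CPM in ESC replicates 1, 2 and 3 and 33.1, 33.1 and 35.5 in EpiLCs. Nascent Id3 was 113, 110 and 88.1 CPM in ESCs and 95.2, 83.7 and 76.3 in EpiLCs. ESC replicate 3 was far below the other ESC libraries in total RNA, and the cell types did not overlap there, while they overlapped in nascent RNA.

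The log2 fold change of Id3 was 0.65 ± 0.23 in total RNA (adjusted p = 0.0211) and −0.29 ± 0.22 in nascent RNA (adjusted p = 0.283), and the stability change was 0.94 ± 0.31 (adjusted p = 0.0958), past neither threshold. The stability adjusted p of Id3 was under 0.05 in 4 of 22 alternatives and ran from 4.55e-04 to 0.237 over them. Without both ESC replicate 3 libraries the total value fell to 0.32 ± 0.09 (adjusted p = 0.00291) and the nascent value to −0.41 ± 0.09 (adjusted p = 4.22e-04), with a stability change of 0.74 ± 0.12 (adjusted p = 4.55e-04). Bmpr2, Id2 and Id3 were the 3 genes with a stability adjusted p under 0.05 in that fit, where 20.4% of all genes had one. No library left out brought any of the 10 genes past both thresholds for stability.

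**Figure D3:**
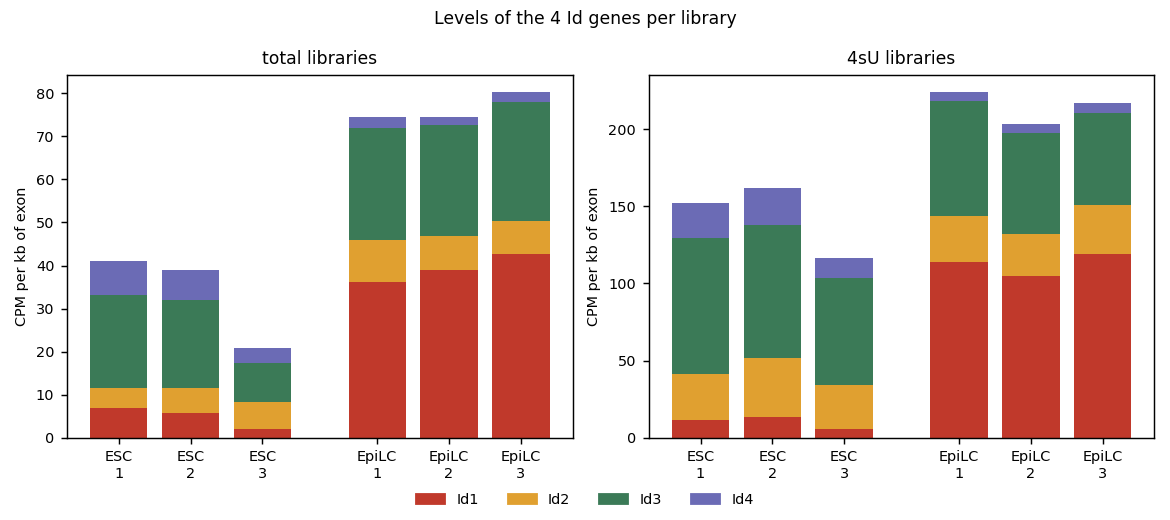
CPM per kb of exon of Id1, Id2, Id3 and Id4, stacked for each library, in total (left) and 4sU (right) libraries on separate axes from 0. The summed total level is 20.9 to 41.2 in ESCs and 74.4 to 80.3 in EpiLCs, and the Id1 block grows while the Id4 block shrinks.

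Per kilobase of exon, the make-up of the Id family changed between the cell types. In ESC total RNA Id3 held the largest share, 49.5% ± 5.24 (SD, n = 3), followed by Id2 with 18.6% ± 9.96, Id4 with 17.9% ± 1.40 and Id1 with 14% ± 3.49. The last 3 lay within each other's spread. In EpiLC total RNA Id1 held 51.3% ± 2.43, Id3 34.7% ± 0.120, Id2 11.1% ± 1.88 and Id4 2.88% ± 0.608, in an order where no neighbours overlapped. Nascent RNA gave 6.79% ± 1.90 for Id1 in ESCs and 52.4% ± 2.20 in EpiLCs.

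The summed level of the 4 Id genes was 41.2, 39.1 and 20.9 CPM per kb in ESC total RNA and 74.6, 74.4 and 80.3 in EpiLC total RNA, a ratio of means of 2.27. In nascent RNA it was 152, 162 and 117 in ESCs and 224, 203 and 217 in EpiLCs, a ratio of 1.5. No EpiLC library overlapped an ESC library in either assay (exact permutation test, two-sided p = 0.10, the smallest that 3 against 3 allows). The E proteins Tcf3, Tcf4 and Tcf12, which Id proteins bind, summed to 65.7 ± 1.00 CPM per kb in ESC total RNA and 67.8 ± 1.13 in EpiLC total RNA. Tcf3 held 79.0% ± 0.634 and 69.9% ± 0.140 of these sums. None of the 3 was called in either assay. Of all genes, 16.3% were called higher and 11.2% lower in total RNA, and 11.9% and 13.5% in nascent RNA. Under the fold threshold, Tcf12 rose in total RNA by 0.67 ± 0.07 on the log2 scale (adjusted p = 1.90e-06). Tcf4 rose by 0.36 ± 0.10 (adjusted p = 0.00516), and Tcf3 measured −0.13 ± 0.07 (adjusted p = 0.105). The ratio of Id to E protein RNA was 0.615, 0.599 and 0.321 in ESC total libraries and 1.10, 1.11 and 1.16 in EpiLC total libraries, a ratio of means of 2.20. In nascent RNA the E proteins summed to 34.4 ± 2.89 and 43.0 ± 1.44 CPM per kb, and the ratio of Id to E protein RNA was 4.16 ± 0.361 and 4.99 ± 0.299, a ratio of means of 1.2. Both gave p = 0.10 by the exact permutation test. Over the 4 such tests, of the sum and the ratio in each assay, the adjusted p was 0.10 for each. Since 3 against 3 allows no smaller p, these tests cannot decide whether the sums or ratios differ.

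Id4, the fourth family member and no part of the 10 genes, went against Id1. It measured 13.2, 11.7 and 5.70 CPM in ESC total RNA and 4.35, 2.84 and 3.78 in EpiLC total RNA. Id4 fell by 1.51 ± 0.36 on the log2 scale in total RNA (adjusted p = 0.00207) and by 1.66 ± 0.34 in nascent RNA (adjusted p = 9.57e-04).

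Relative stability, log2 of total over 4sU CPM within libraries of the same number, had lower means for the Id genes than for the SMADs in both cell types. Pairing by number serves to show the spread: the means do not depend on it, while the SDs and the single values do. The values order genes within a cell type and give no half-life, since no spike-in set an absolute scale. Id2 stood at −2.65, −2.72 and −2.18 in ESCs and at −1.57, −1.74 and −2.02 in EpiLCs, at percentiles 12.9 and 15 of all tested genes by the fitted values. Id3 stood at −2.01, −2.05 and −2.87 in ESCs and at −1.51, −1.33 and −1.09 in EpiLCs, at percentiles 14.6 and 19.4. For both genes every EpiLC value was above every ESC value. The share of all genes separated in this way was not counted, and 60.9% of all tested genes had a stability change above 0.

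Id1 went from −1.0 ± 0.27 (SD, n = 3) in ESCs to −1.51 ± 0.12 in EpiLCs, at percentiles 27.1 and 17.6. With libraries paired by number, every EpiLC value of Id1 was below every ESC value, the reverse of Id2 and Id3. For Id1 this separation depends on the pairing, since ESC replicate 3 was its lowest ESC library in both assays. The stability change of Id1 was −0.50 ± 0.41 (limma-voom adjusted p = 0.511), past neither threshold. Bmpr2 was low as well, at −1.30 ± 0.68 and −1.07 ± 0.10. Its ESC values were −1.81, −1.57 and −0.53, with number 3 apart. The SMADs lay closer to the median of all genes. Smad1 measured −0.54 ± 0.24 in ESCs and −0.81 ± 0.17 in EpiLCs, Smad5 −0.24 ± 0.18 and −0.11 ± 0.11, and Smad6 0.14 ± 0.13 and 0.07 ± 0.07. Bmpr1a measured −0.24 ± 0.24 and −0.23 ± 0.08, and Bmp4 −0.27 ± 0.44 and −0.04 ± 0.04. Bmp7 was the highest of the 10 genes in both cell types, at 0.28 ± 0.29 and 0.51 ± 0.32. Of the 10 genes, 8 lay below the median of all genes in ESCs (0.03) and 9 in EpiLCs (0.15).

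**Figure D4:**
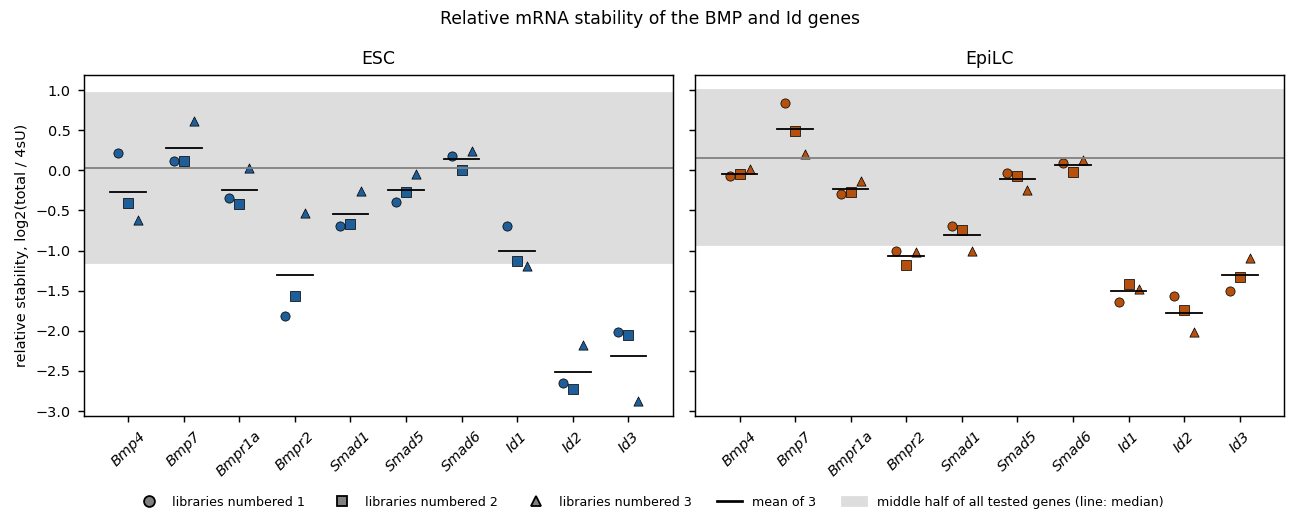
Relative stability, log2(total/4sU), of each of the 10 genes in ESCs (left) and EpiLCs (right), with 1 point for each library number, a line at the mean of 3 and a grey band for the middle 50% of the 14731 tested genes. Id2 and Id3 lie lowest in ESCs, with means of −2.51 and −2.31, and at −1.78 and −1.31 in EpiLCs.

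ESC replicate 3 differed from the mean of ESC replicates 1 and 2 for some of the genes and not for others. In total RNA Id1 was lower by a log2 difference of −1.41, Bmp4 by −1.21 and Id3 by −1.18, where 90% of all genes lay between −0.58 and 0.83. Bmpr2 was higher by 1.13. In the 4sU libraries of replicate 3 the differences were −1.14 for Id1, −0.68 for Bmp4, −0.34 for Id3 and −0.03 for Bmpr2, where 90% of all genes lay between −0.71 and 0.82. Id1 was thus outside that range in both assays, Bmp4 and Id3 in total RNA alone, and Bmpr2 in total RNA alone. Bmp7, Bmpr1a, Smad1, Smad5, Smad6 and Id2 lay between −0.08 and 0.37 in total RNA. Other pathway genes went in both directions. Id4 was lower, with −1.06 in total RNA and −0.78 in 4sU RNA. The inhibitor Smad7 had −0.65 and −0.64, the 4sU value inside the range of 90% of all genes. The target gene Tbx20 was higher, with 1.38 in total RNA and 1.16 in 4sU RNA, above that range in both assays. The target genes Msx1, Msx2, Hey1 and Dusp9 lay inside it in both assays. These are descriptions of 1 replicate number and were not tested.

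**Figure D5:**
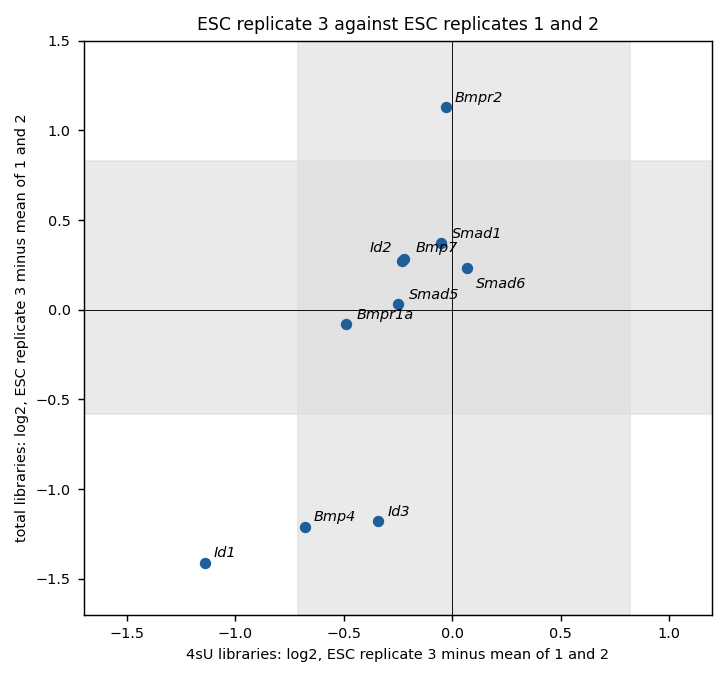
Log2 difference between ESC replicate 3 and the mean of ESC replicates 1 and 2 for each of the 10 genes, in 4sU (x axis) and total (y axis) libraries, with grey bands for the range that holds 90% of the 14731 tested genes. Id1 is at −1.14 and −1.41, outside both bands, and Bmpr2 is at −0.03 and 1.13.

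The rest of the pathway was taken from a list of 58 further names, of which 56 were in the table and 35 passed the filter. Of the 35, 9 passed through EpiLC libraries alone and 2 through ESC libraries alone. The filter made a gene of that kind likely to differ, so their calls are left out of the counts. Of the other 24, in total RNA 4 were called higher and 4 lower, beside 16.3% and 11.2% of all tested genes. In nascent RNA 2 were called higher and 2 lower, beside 11.9% and 13.5%, and for stability 1 was called, in the lower direction, beside 1.54%. Of 7 receptors and co-receptors among the 24, 2 were called higher and 1 lower in total RNA. Acvr2b, a type II receptor shared with activins, rose by 1.26 ± 0.09 on the log2 scale in total RNA (adjusted p = 1.70e-08) and measured 0.63 ± 0.13 in nascent RNA. The co-receptor gene Rgmb rose by 1.12 ± 0.14 in total RNA (adjusted p = 6.08e-06), and was at 0.99, just short of the fold threshold, without the EpiLC total library of replicate 1. Eng, which encodes the co-receptor endoglin, went down, with −1.11 ± 0.12 in total RNA (adjusted p = 2.11e-06) and −1.44 ± 0.18 in nascent RNA (adjusted p = 1.22e-05). Acvr2a rose in nascent RNA alone by the thresholds (1.05 ± 0.09, adjusted p = 3.74e-07), with 0.93 ± 0.08 in total RNA. Without both ESC replicate 3 libraries its nascent value was 0.98 and was not called.

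Of 6 SMADs and regulators among the 24, 1 was called higher in both assays and none lower. That gene, Skil, whose product SnoN represses SMAD activity, measured 164, 162 and 133 CPM in ESC total RNA and 426, 411 and 410 in EpiLC total RNA. It rose by 1.44 ± 0.10 on the log2 scale in total RNA (adjusted p = 9.08e-09) and by 2.5 ± 0.10 in nascent RNA (adjusted p = 3.25e-10). Its stability fell by 1.06 ± 0.14 (adjusted p = 0.00159), the single stability call on the list. With scaling by library totals alone that value was −0.99, just short of the fold threshold. Smad4, the partner of Smad1 and Smad5, measured 0.31 ± 0.09 in total RNA (adjusted p = 0.00871), under the fold threshold.

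Of 3 antagonists among the 24, none was called higher and 2 lower in total RNA. Fst, which encodes follistatin, fell by 1.30 ± 0.19 on the log2 scale in total RNA (adjusted p = 3.36e-05). Fstl1 fell by 1.22 ± 0.14 (adjusted p = 2.58e-06). Of 5 further targets 1, Id4, was called lower and 1, Tbx20, higher in total RNA. Tbx20 was named after its values were seen, and with a log2 fold change of 1.26 ± 0.38 (adjusted p = 0.00947) its groups overlapped. It was not called without the ESC total library of replicate 1 (0.93, adjusted p = 0.0623) or of replicate 2 (1.08, adjusted p = 0.0515), nor by edgeR (adjusted p = 0.0511) or DESeq2 (adjusted p = 0.0672).

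Some genes that passed the filter through EpiLC libraries alone are given by their levels only, and were named after these were seen. Bmp8b, a ligand, had 0.521 to 1.87 CPM in ESC total RNA and 5.80 to 7.58 in EpiLC total RNA. Bmp1, a protease that cuts the BMP antagonist chordin, had 2.62 to 3.64 and 15.4 to 17.9. The antagonist gene Nbl1 had 0.503 to 1.28 and 4.45 to 4.97, and the follistatin-like Fstl3 had 0.654 to 1.77 and 3.91 to 5.59. The target gene Msx1 had 0.695 to 0.956 and 3.88 to 5.91, and the SMAD regulator gene Zeb2 had 0.554 to 0.927 and 2.49 to 3.35. The antagonist gene Nog had 0.983 to 1.21 and 1.23 to 2.90. For each of these genes, every EpiLC total library lay above every ESC total library, as the filter made likely.

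Summed over Bmp2, Bmp4, Bmp5, Bmp6, Bmp7, Bmp8a and Bmp8b, the ligand level per kilobase was 8.47 ± 0.561 in ESC total RNA and 8.22 ± 0.461 in EpiLC total RNA. Within it Bmp4 held 30.5% ± 12.5 in ESCs and 18.1% ± 3.84 in EpiLCs, and Bmp7 held 42.2% ± 7.54 and 26.6% ± 3.99. Bmp6 held 8.66% ± 1.13 and 17.3% ± 1.33, and Bmp8b 5.02% ± 3.02 and 27.2% ± 2.81. The libraries of the cell types overlapped for the Bmp4 share and for no other of these 4 shares. Bmp6 and Bmp8b passed the filter through EpiLC libraries alone, and shares of 1 sum depend on each other, so these values are a description.

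The genes with the most similar profiles over the 12 libraries were sought among the 10173 or 10174 other genes that averaged 10 CPM or more, by Pearson's r of log2 CPM. This r is shaped by assay and cell type alike, which all genes share, and is a description. For Id1 they included Ccdc85a (r = 0.991) and Cflar (0.991), with 324 genes above 0.9. For Id2 they were Nkapd1, Gm37864 and Med1 (0.991 to 0.995), with 1293 genes above 0.9, and for Id3 Klf13, Arl4a and Smim10l1 (0.980 to 0.986), with 724. For Bmp7 they were Mpv17l, Usp48 and Pak4 (0.967 to 0.968), with 302. Bmp4 had the fewest, with 4 genes above 0.9, led by Rnf168 (0.955), Pla2g1b (0.944) and Zmat4 (0.916).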

How the data were processed

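The authors deposited raw read counts per gene for 12 libraries. Per the submitters' processing notes and the study's methods, single-end stranded reads were trimmed (cutadapt 1.14), aligned to mm10 with STAR 2.5.3a keeping uniquely mapped reads, and counted over the exons of GENCODE genes without rRNA (featureCounts 1.5.3). Intron reads are not in these counts, so nascent values rest on exonic reads. The 92 spike-in entries had 0 reads, so no absolute scale was given. Symbols matched 99.6% of gene IDs.

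Genes with at least 3 CPM in 3 libraries were fitted over all 12 libraries with limma-voom (limma 3.58.1, TMM by edgeR 4.0.16, R 4.3.3), after the study's methods, and adjusted p-values are Benjamini-Hochberg over all 14731 genes. Stability was the interaction. CPM logs used a pseudocount of 0.5. Reads carry no molecular identifiers, so depth sets counting error only. The labels do not say what separates the replicates, and p-values then measure the spread between these libraries. The fit was tested on simulated data. Figures used Python 3.11.15 and matplotlib 3.10.9.

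The 10 genes and all lists were chosen with earlier results of these data known. All 10 were described. Of the other pathway genes, those called in any contrast with a mean of at least 10 CPM in an assay were named, and for Id1, Id2, Id3, Bmp4 and Bmp7 the 3 most similar profiles, of which 1 is not reported here. Alternatives covered scaling, filter, edgeR, DESeq2 1.42.0, quality weights, a replicate block, separate assays, thresholds and left-out libraries.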

Additional observations from a re-analysis of the deposited data

Results flagged for a closer look

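The change in total RNA and the change in nascent RNA differed by the interaction test (limma-voom adjusted p under 0.05, whatever the fold) for 3 of the genes described. For Id2 the difference was 0.78 ± 0.21 on the log2 scale (adjusted p = 0.0470), short of the fold threshold. For Acvr2b it was 0.62 ± 0.16 (adjusted p = 0.0385), also short of it, and for Skil it was −1.06 ± 0.14 (adjusted p = 0.00159). Over the alternatives the adjusted p of Id2 ran from 0.00145 to 0.161, that of Acvr2b from 0.00160 to 0.204 and that of Skil from 5.67e-11 to 0.00883.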

How the results depend on the processing

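The number of the 10 genes called was 2 in total RNA, 2 in nascent RNA and 0 for stability. With each library left out in turn it ran from 2 to 3 in total RNA, from 2 to 3 in nascent RNA and from 0 to 0 for stability. By adjusted p alone it was 9, 6 and 1. Without both ESC replicate 3 libraries it was 3, 4 and 0, with Bmp4 added in total RNA and Bmp4 and Bmp7 in nascent RNA, where 28.2%, 24.9% and 5.44% of all genes were called. Sample quality weights gave 3 in total and 3 in nascent RNA. With the replicate block the counts were 2, 3 and 0, Bmp4 being the gene added in nascent RNA (log2 fold change −1.05, adjusted p = 0.0343). The stability values under the block were 0.80 for Id2 (adjusted p = 0.0123) and 0.92 for Id3 (adjusted p = 0.0110), short of the fold threshold. Same-numbered 4sU and total libraries deviated together with r of 0.232 to 0.484 in ESCs and 0.024 to 0.102 in EpiLCs, and every ESC library but not every EpiLC library correlated best with its own number, so the numbers were not taken as pairs in the tests. The labels say that extracts were split in 2, but not that a number marks 1 extract. The direction of Id1, Bmpr2, Bmpr1a, Smad1, Smad5, Bmp4, Bmp7 and Id3 in total and nascent RNA held under every alternative tried. Directions turned only for values with an adjusted p over 0.05. Nascent Smad6 was 0.02 by median-of-ratios scaling, 0.02 by TMM within each assay, 0.01 by DESeq2 and 0.03 within the 4sU libraries alone, and −0.13 to 0.07 with libraries left out. Nascent Id2 ran from −0.25 to 0.03 with libraries left out. The stability value of Bmpr1a was −0.06 by median-of-ratios scaling, −0.03 by TMM within each assay, −0.08 with no filter, −0.05 by DESeq2 and −0.14 to 0.09 with libraries left out. With libraries left out the stability value ran from −0.14 to 0.35 for Bmp4, from −0.0037 to 0.62 for Bmpr2 and from −0.19 to 0.01 for Smad6. The cause was not tested. Scaling by library totals alone moved the median of all genes to 0.11 in total RNA and 0.18 for stability. The 4sU depth limits Bmp4 most, with 12 reads in its lowest library. Over all genes, stability calls were 182 higher and 45 lower, 132 and 66 by median-of-ratios scaling, 144 and 59 by TMM within each assay, and 779 in all without both ESC replicate 3 libraries.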
